A study of Mus musculus with 6 samples.

Results

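Imprinted genes were followed in mouse E14 embryonic stem cells given shRNAs against Tip5, set against E14 cells given a non-specific control shRNA. The genes were chosen from a list of 41 imprinted genes by their symbols, and probes were matched to 36 of them, out of 16593 named genes on the array. Those 36 genes carried 60 probes. No probe was matched to H19, Meg3, Slc22a3, Copg2 or Zrsr1, so their levels are not given here.

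Imprinting is the expression of a gene from the copy inherited from 1 parent only. For most such genes it is set by DNA methylation laid down in egg or sperm and kept through later cell divisions. Most imprinted genes lie in clusters in which a methylated control region, often with a long non-coding RNA, silences several neighbours on 1 parental chromosome. Many of the paternally expressed genes promote growth and many of the maternally expressed ones restrain it, and embryonic stem cells are known for unstable imprints in culture. An expression array sums the RNA of both copies, so the levels below do not say which parental copy was read.

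Tip5, encoded by Baz2a, works with the ATPase Snf2h in a complex that moves nucleosomes and silences ribosomal RNA genes in the nucleolus. The series title names chromatin architecture, gene expression, self-renewal and pluripotency as its subject. There were 3 Tip5-knockdown arrays and 3 control arrays, each from its own transfection of the same line, and the labels call the control cells wild type. In the knockdown, shRNA constructs with different selection markers were combined. All 6 cultures went through 6 days of antibiotic selection and RNA was taken at passage 3, from cells kept on gelatin in medium with 20% serum and 1000 U/ml LIF. The labels name no separate clones. Values below are normalized log2 levels of a probe, on which a difference of 1 is a 2-fold difference, and every difference is the knockdown mean less the control mean. Standard errors (SE) are those of limma after moderation, standard deviations (SD) are taken within a group of 3 arrays, and a probe counts as above background on an array at a detection p-value under 0.05.

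The label was checked first. Baz2a, read by 1 probe, had 5.21, 4.74 and 5.13 in knockdown replicates 1, 2 and 3, against 6.42, 7.51 and 5.99 in control replicates 1, 2 and 3. The groups did not overlap, and in the knockdown 2 arrays of 3 read the probe above background. The difference was -1.62 (SE 0.39, limma adjusted p = 0.203), which did not pass, and it was -0.57 with no background correction. By exact permutation of the arrays, two-sided, p = 0.1, and no smaller value can be had with 3 against 3. All 8 pluripotent stem cell markers examined, Pou5f1, Nanog, Sox2, Zfp42, Esrrb, Klf4, Dppa5a and Tdgf1, were above background on all 6 arrays.

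Replicate 3 stood apart from the other replicates in both groups. Before normalization the mean probe signal was 529, 510 and 1092 in knockdown replicates 1, 2 and 3. In control replicates 1, 2 and 3 it was 544, 486 and 876.5. Whether the cultures or the array measurement set replicate 3 apart was not tested. Over 7 tested markers of primitive and other endoderm the mean log2 level was 7.63, 7.61 and 10.54 in knockdown replicates 1, 2 and 3, against 8.03, 7.98 and 8.74 in control replicates 1, 2 and 3. Of 14 such markers with a probe, 5 were above background on all 6 arrays and Afp on none. The mean of 5 tested fibroblast and feeder markers lay between 6.63 and 7.09 in the knockdown and between 6.56 and 7.20 in controls. Col3a1, Lum and Postn were above background on no array. The mean of 5 tested trophoblast markers lay between 8.03 and 8.86 in the knockdown, highest in replicate 3, and between 7.94 and 8.26 in controls. Elf5, Eomes and Hand1 were above background on no array. The neural mean rests on 2 tested markers, Nes and Map2, with Pax6 and Sox1 above background on no array. It lay between 7.33 and 8.01 in the knockdown and between 6.92 and 7.58 in controls. Fewer expressing cells and less RNA per cell cannot be told apart in these bulk samples.

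No imprinted gene passed the test between knockdown and control. Of the 36 genes, 26 were tested because a probe of theirs was above background on 3 or more arrays. Of these, 13 are listed as expressed from the paternal copy, 10 from the maternal copy and 3 from either copy by isoform or tissue. The classes used below are those of the list, and the copy expressed in these cells was not measured. None of the 26 was called in limma at an adjusted p under 0.05, where 0.0776% of all 9015 genes tested were called. Each gene stands here by its brightest tested probe, and by those the lowest adjusted p was 0.346, for Phlda2. Over all 35 tested member probes it was 0.172, for a second probe of Gnas. At an unadjusted p under 0.05 there were 2 members, Phlda2 and Slc22a18, against 11.2% of all genes. With the replicate number as a block, limma called 0 of the 26, against 1.95% of all genes, and 11 were at an unadjusted p under 0.05, against 22.8% of all genes. Of those 11, Igf2, Peg3, Snrpn, Ndn, Gnas and Ube3a had positive differences and Cdkn1c, Phlda2, Slc22a18, Usp29 and Ppp1r9a negative ones.

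Split by direction, the fit with the block called 0 members higher, against 0.732% of all genes, and 0 lower, against 1.22%. Within replicate numbers, 16 of the 26 members had the same sign in all 3 pairs, 10 of them positive and 6 negative, where 46.7% of all genes did.

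Under some other settings a few members were called. Without both replicate 3 arrays, an alternative added after the data were seen, Snrpn and Ube3a were higher and Cdkn1c lower, against 4.75% of all genes called. With the block and without replicate 3, Peg3 and Snrpn were higher and Cdkn1c and Slc22a18 lower, against 5.57%. Weighting the arrays by their quality gave Snrpn higher and Cdkn1c and Slc22a18 lower, against 9.96%. The replicate 3 arrays also had the highest mean endoderm marker level and the highest mean raw signal, whose part in these calls was not tested.

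Joining the block to another setting, also added after the data were seen, gave 0 to 4 calls. No member was called when all probes were kept or when the authors' own values were used. With no background correction Igf2 and Snrpn were higher and Phlda2 and Slc22a18 lower, against 9.36% of all genes. With an offset of 50 Igf2 was higher and Phlda2 and Slc22a18 lower, against 7.72%, and with median scaling Igf2 was higher and Slc22a18 and Usp29 lower, against 6.74%. Slc22a18 alone was called, lower, with cyclic loess, against 4.07%, and with the stricter filter, against 4.69% of 7554 genes.

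**Figure D1:**
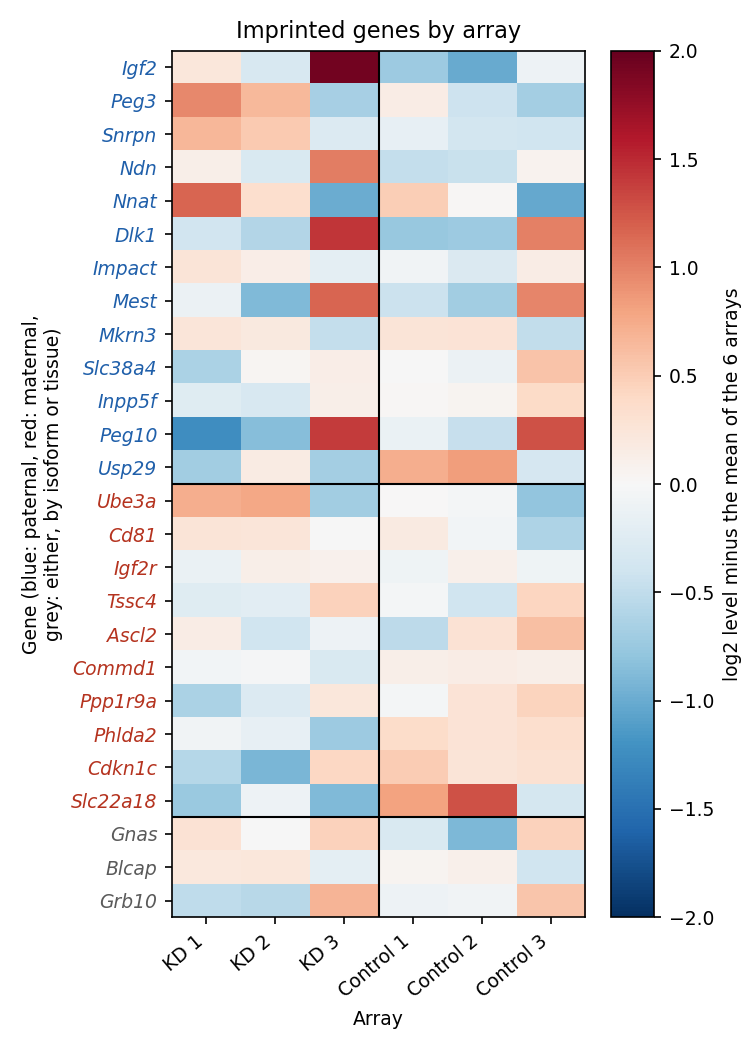
Normalized log2 level of the 26 tested imprinted genes on the 3 knockdown (KD) and 3 control arrays, each minus the gene's mean over the 6 arrays, so that red is above and blue below that mean. Genes are ordered by expressed copy (blue, paternal; red, maternal; grey, either) and, within it, by the difference between groups. Dlk1, Mest and Peg10 are high and Nnat is low in the replicate 3 columns of both groups, and Igf2 is high in knockdown replicate 3.

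The members had a median difference of 0.03, against 0.02 over all genes tested, with 14 positive and 12 negative. Their differences ran between -1.15 (Slc22a18) and 1.22 (Igf2). The median size of the difference, sign left out, was 0.33 for the members and 0.21 for all genes, while the median SE was 0.33 for the members and 0.24 for all genes. The 13 paternally expressed genes had a median of 0.14, with 8 positive and 5 negative. The 10 maternally expressed genes had a median of -0.25, with 4 positive and 6 negative, and Gnas, Blcap and Grb10 had a median of 0.16. In 2 members, Phlda2 and Commd1, the groups did not overlap, both lower in the knockdown, where 17.0% of all genes had groups apart, 8.00% with the knockdown lower and 8.96% with it higher. By its second tested probe, Gnas also had groups apart, higher in the knockdown. Phlda2 and Commd1 are listed as maternally expressed.

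**Figure D2:**
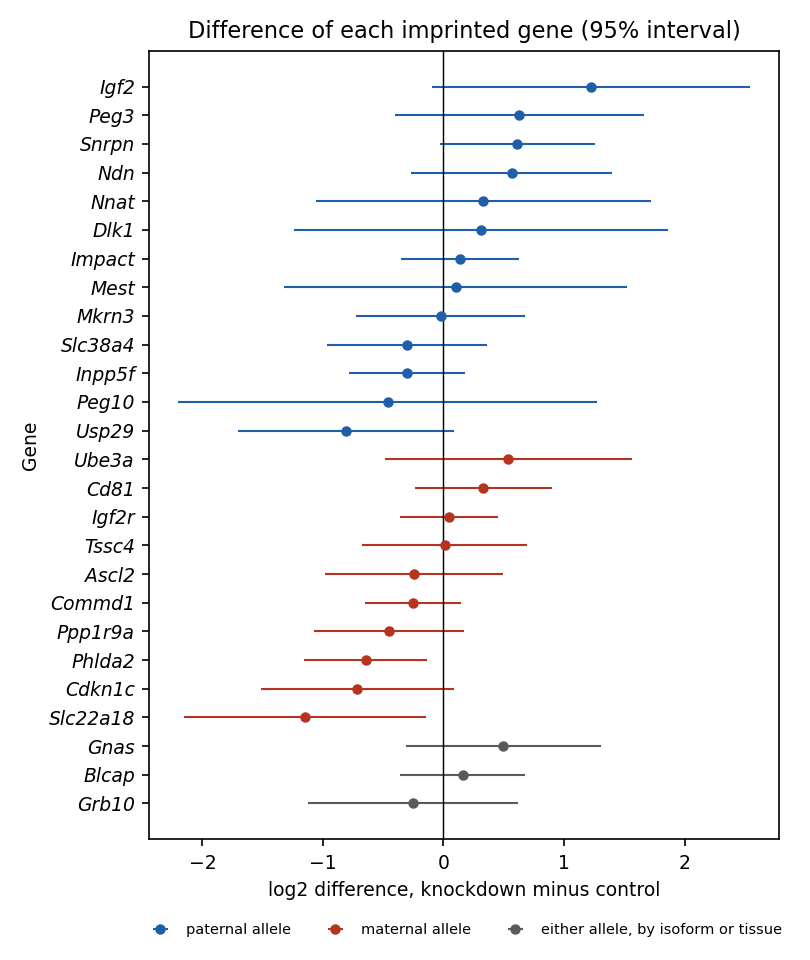
Log2 difference, knockdown minus control, of the 26 tested imprinted genes (points) with the 95% interval of the limma fit (lines). Genes are coloured by expressed copy. The intervals of Phlda2 and Slc22a18 lie below 0 and the other 24 span it, before any adjustment for the number of probes tested.

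The Kcnq1 cluster on chromosome 7, where the paternal non-coding RNA Kcnq1ot1 silences its neighbours, held 3 of the 4 most negative differences among the members. It had 6 tested members, all listed as maternally expressed, with a median difference of -0.44. Cdkn1c, Phlda2, Slc22a18 and Ascl2 had negative differences and Cd81 and Tssc4 positive ones. Promoter windows of Phlda2 and Slc22a18 are shown because these 2 neighbours had the lowest unadjusted p of all members by the brightest probe. Each window runs from 250 bases before to 50 after the gene's start in RefSeq (GRCm38.p6), both are printed 5′ to 3′ on the gene's own strand, Phlda2 lies on the minus strand at chr7:143502475-143502774 and Slc22a18 on the plus strand at chr7:143473539-143473838.
Phlda2: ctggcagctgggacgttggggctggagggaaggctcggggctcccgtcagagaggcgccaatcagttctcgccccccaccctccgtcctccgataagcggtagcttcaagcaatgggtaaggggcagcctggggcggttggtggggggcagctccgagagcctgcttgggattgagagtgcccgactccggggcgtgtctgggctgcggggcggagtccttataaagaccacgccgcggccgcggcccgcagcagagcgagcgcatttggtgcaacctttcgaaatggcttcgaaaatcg
Slc22a18: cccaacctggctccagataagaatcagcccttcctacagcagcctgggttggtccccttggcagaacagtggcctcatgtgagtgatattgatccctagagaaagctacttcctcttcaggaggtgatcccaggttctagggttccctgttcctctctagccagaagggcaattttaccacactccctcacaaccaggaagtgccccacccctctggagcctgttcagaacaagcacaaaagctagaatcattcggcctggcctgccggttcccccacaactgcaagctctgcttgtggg
The Phlda2 window holds 26 CpG dinucleotides and the Slc22a18 window 2, against a median of 7 over all 32851 windows of the reference table. Neither holds the hexamer TGCCGC, the binding letters of ZFP57, a zinc-finger protein that keeps imprints, on either strand, so no base is in capitals.

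Slc22a18 encodes a membrane transporter of the organic cation family. It had 5.63, 6.29 and 5.51 in knockdown replicates 1, 2 and 3, against 7.19, 7.65 and 6.03 in control replicates 1, 2 and 3. Knockdown replicate 2 lay above control replicate 3, so the groups overlapped, and the knockdown was lower within each replicate number. The difference was -1.15 (SE 0.43, adjusted p = 0.397), or 2.22-fold lower, with a 95% interval between -2.15 and -0.14. Its level is near the floor of the measurement, the difference was -0.50 with no background correction, and the gene's other probe was above background on no array.

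Phlda2, a pleckstrin-homology protein that restrains growth of the placenta, had 11.53, 11.43 and 10.88 in the knockdown replicates and 11.98, 11.87 and 11.94 in the control replicates. All 3 knockdown arrays lay below all 3 control arrays, and the lowest was knockdown replicate 3. The means were 11.28 ± 0.35 in the knockdown and 11.93 ± 0.05 in controls (SD, n = 3 each), a difference of -0.65 (SE 0.22, limma adjusted p = 0.346).

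Cdkn1c, an inhibitor of cyclin-dependent kinases, had 9.44, 9.10 and 10.44 in the knockdown replicates, against 10.53, 10.27 and 10.33 in the control replicates. Knockdown replicates 1 and 2 lay below every control array, while knockdown replicate 3 lay among them. Within replicate numbers the differences were -1.09, -1.17 and 0.11. The mean difference was -0.72 (SE 0.34, adjusted p = 0.538). It was -0.44 without knockdown replicate 2 and -1.10 without knockdown replicate 3, and it was -1.13 without both replicate 3 arrays, where it passed (limma adjusted p = 0.0435).

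Ascl2, a helix-loop-helix factor of the trophoblast, was above background on 2 of 3 arrays in each group and differed by -0.24 (SE 0.31), or between -0.56 and -0.0046 without single arrays. Cd81, a tetraspanin of the cell surface, differed by 0.33 (SE 0.24), or by 0.11 without control replicate 3. Tssc4, a splicing-associated protein, differed by 0.01 (SE 0.29), and its other tested probe gave 0.20. Kcnq1 itself, a potassium channel, was above background on 1 knockdown array and 1 control array by 1 of its 2 probes and was not tested.

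**Figure D3:**
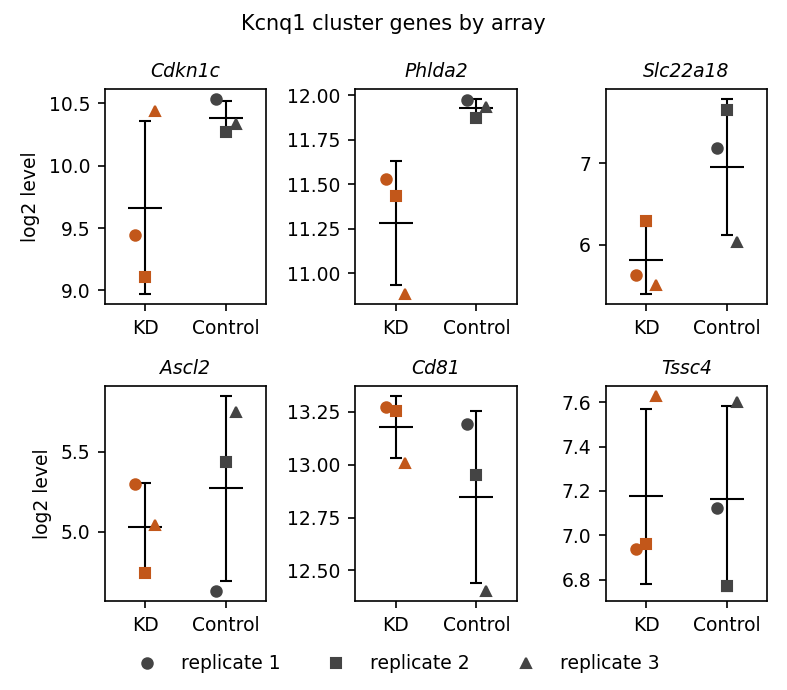
Normalized log2 level of the 6 tested genes of the Kcnq1 cluster on each array, knockdown (KD, left) and control (right), with the mean and SD of the 3 arrays in black. Circles, squares and triangles are replicates 1, 2 and 3, and each panel has its own axis. Phlda2 is the gene whose groups do not overlap, and Cdkn1c shows knockdown replicate 3 at the control level.

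Genes of the insulin-like growth factor axis come next. Igf2, the paternally expressed fetal growth factor, had 8.68, 8.13 and 10.38 in knockdown replicates 1, 2 and 3, against 7.73, 7.44 and 8.35 in control replicates 1, 2 and 3. Knockdown replicate 3 lay above every other array, knockdown replicate 2 lay between control replicates 1 and 3, and the knockdown was higher within each replicate number. The mean difference of 1.22 (SE 0.56, adjusted p = 0.519) had a 95% interval between -0.10 and 2.54. It was 0.56 without knockdown replicate 3, the array with the highest endoderm marker level. Its partner H19, the maternally expressed non-coding RNA of the same cluster, is among the genes with no matched probe.

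Igf2r, the maternally expressed receptor that carries Igf2 to the lysosome, was at 8.67 ± 0.14 in the knockdown and 8.63 ± 0.11 in controls (SD, n = 3 each), a difference of 0.04 with a 95% interval between -0.36 and 0.45. Its other probe gave -0.18. Grb10, an adaptor that restrains insulin and growth factor signalling, differed by -0.25 (SE 0.37), and by -0.04 without knockdown replicate 2 or control replicate 3 and -0.66 without knockdown replicate 3. Both of its replicate 3 arrays, 10.70 in the knockdown and 10.57 in the control, lay above the other 4, which ran between 9.47 and 9.96.

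The Snrpn cluster, also on chromosome 7, is the mouse counterpart of the human Prader-Willi and Angelman region, with several paternal genes facing the maternal gene Ube3a. Snrpn, which encodes a core protein of spliceosomal particles, had 14.10, 13.96 and 13.16 in knockdown replicates 1, 2 and 3, against 13.27, 13.08 and 13.04 in control replicates 1, 2 and 3. Knockdown replicates 1 and 2 lay above every control array and knockdown replicate 3 lay inside the control range. The difference was 0.61 (SE 0.27, adjusted p = 0.503) and its other probe gave 0.63. Without both replicate 3 arrays it was 0.86 and passed (limma adjusted p = 0.0484). Snrpn has a close paralog in Snrpb, and whether its probes read both was not tested.

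Ube3a, a ubiquitin ligase, is listed as maternally expressed. It had 7.29, 7.34 and 5.86 in the knockdown replicates, against 6.57, 6.53 and 5.78 in the control replicates. By this probe, its brightest, replicate 3 was the lowest array in each group, and within each replicate number the knockdown was higher. The mean difference was 0.54 (SE 0.44, adjusted p = 0.793), and the gene's other tested probe gave 0.11. Without single arrays it ran between 0.28 (without control replicate 3 or knockdown replicate 2) and 1.02 (without knockdown replicate 3). Ube3a passed without both replicate 3 arrays, at 0.77 (limma adjusted p = 0.0468). By the other tested probe, replicate 3 was the highest array of each group (6.66 in the knockdown and 6.87 in the control). Its differences within replicate numbers were -0.07, 0.61 and -0.21.

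Ndn, the MAGE-family protein necdin, had 9.88, 9.47 and 10.79 in the knockdown replicates, against 9.29, 9.33 and 9.83 in the control replicates. Replicate 3 was the highest array of each group. The difference of 0.57 (SE 0.35, adjusted p = 0.690) came to 0.19 without knockdown replicate 3. Mkrn3, a makorin ring-finger protein, differed by -0.02 (SE 0.30), and Magel2 and Peg12 were above background on no array.

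The Peg3 cluster, at the other end of chromosome 7, has a divergent promoter from which the paternally expressed genes Peg3 and Usp29 start on opposite strands. Their starts in RefSeq lie 164 bases apart and their promoter windows share 263 bases. The Peg3 window, shown because the 2 genes it serves had differences of opposite sign, lies on the minus strand at chr7:6730370-6730669 and holds 13 CpG dinucleotides and no TGCCGC.
Peg3: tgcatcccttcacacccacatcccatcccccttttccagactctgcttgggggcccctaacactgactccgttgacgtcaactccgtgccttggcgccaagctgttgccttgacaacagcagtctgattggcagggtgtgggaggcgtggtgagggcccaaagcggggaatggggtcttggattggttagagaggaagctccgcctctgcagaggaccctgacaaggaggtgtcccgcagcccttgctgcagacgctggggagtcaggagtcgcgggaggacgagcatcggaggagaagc
Peg3, a zinc-finger protein, had 6.84, 6.54 and 5.22 in knockdown replicates 1, 2 and 3, against 6.04, 5.48 and 5.20 in control replicates 1, 2 and 3. Knockdown replicates 1 and 2 lay above all control arrays, and both replicate 3 arrays lay at the low end. The difference was 0.63 (SE 0.44, adjusted p = 0.734), and 0.24 with no background correction. It was 0.31 without knockdown replicate 1 and 1.12 without knockdown replicate 3.

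Usp29, a ubiquitin-specific protease, had 4.76, 5.63 and 4.79 in the knockdown replicates, against 6.19, 6.30 and 5.12 in the control replicates. The knockdown was lower within each replicate number, and the groups overlapped through control replicate 3. The probe was above background on 1 of 3 knockdown arrays and on all 3 control arrays. Its difference was -0.81 (SE 0.38, adjusted p = 0.530), and -0.25 with no background correction. Whether the 2 genes differ from each other in their response was not tested. Zim1, the maternally expressed zinc-finger gene of the cluster, was above background on no array.

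**Figure D4:**
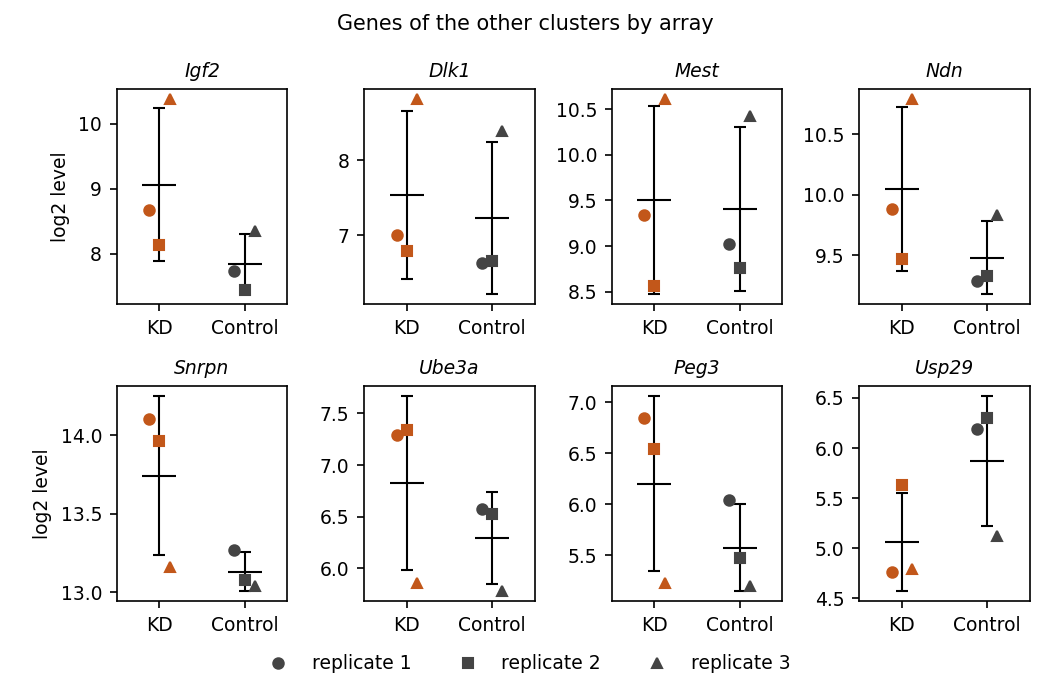
Normalized log2 level of 8 imprinted genes of other clusters on each array, knockdown (KD, left) and control (right), with the mean and SD of the 3 arrays in black. Circles, squares and triangles are replicates 1, 2 and 3, and each panel has its own axis. Replicate 3 (triangles) is the highest array of both groups for Igf2, Dlk1, Mest and Ndn and the lowest for Snrpn, Ube3a and Peg3. Each gene is shown by its brightest tested probe, and the other tested probe of Ube3a had replicate 3 highest.

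In further clusters a paternally expressed gene had a larger difference by replicate number than by group. Mest encodes an enzyme of the alpha/beta hydrolase fold. RefSeq gives it 3 windows, and 2 that overlap almost wholly hold the ZFP57 hexamer. The first of these is shown with the matches in capitals, as GCGGCA where the match is on the opposite strand, at chr6:30737800-30738099 on the plus strand, and beside it the Snrpn window with such a match, at chr7:60005150-60005449 on the minus strand.
Mest: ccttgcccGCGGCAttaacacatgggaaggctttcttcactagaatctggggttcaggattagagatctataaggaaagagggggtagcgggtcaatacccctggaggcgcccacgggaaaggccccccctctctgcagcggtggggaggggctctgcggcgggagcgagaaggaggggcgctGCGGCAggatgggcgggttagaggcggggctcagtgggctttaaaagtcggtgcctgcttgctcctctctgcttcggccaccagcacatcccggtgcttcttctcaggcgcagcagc
Snrpn: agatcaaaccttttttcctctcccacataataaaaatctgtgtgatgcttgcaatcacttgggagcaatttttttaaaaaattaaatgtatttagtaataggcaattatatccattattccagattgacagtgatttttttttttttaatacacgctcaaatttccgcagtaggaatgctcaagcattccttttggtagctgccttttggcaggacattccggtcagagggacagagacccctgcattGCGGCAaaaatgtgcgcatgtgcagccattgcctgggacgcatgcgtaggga
The Mest window holds 17 CpG dinucleotides and 2 matches and the Snrpn window 7 CpG dinucleotides and 1 match.

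Over 34 listed genes with a promoter window used here, 12 of 52 windows held TGCCGC on either strand (23.1%), against 11.6% of all 32851 windows. Windows on chromosome 18, where Impact lies, were left out of the member windows but not out of all windows. Windows of 1 gene can overlap, and both overlapping Mest windows are among the 12. The windows belonged to 11 genes, namely Commd1, Copg2, Grb10, Igf2, Meg3, Mest, Nap1l5, Nnat, Plagl1, Snrpn and Zim1. The core of the YY1 site, searched as GCCATNTT on either strand, was in 5.77% of member windows (Mkrn3, Slc38a4 and Ube3a) and in 6.05% of all windows. Member windows also held more CpG dinucleotides, with a median of 15 against 7. These matches describe letters in a window, and binding was not measured.

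Mest had 9.33, 8.57 and 10.62 in knockdown replicates 1, 2 and 3, against 9.02, 8.76 and 10.43 in control replicates 1, 2 and 3. Both replicate 3 arrays lay above the other 4, by 1.60 on average. Between groups the difference was 0.10 (SE 0.61, adjusted p = 0.986), with a 95% interval between -1.32 and 1.52, and its other probes gave 0.14 and 0.22. It was -0.46 without knockdown replicate 3, -0.09 without control replicate 1 and -0.22 without control replicate 2, so single arrays decided its direction.

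Dlk1, a membrane protein related to Notch ligands, had 7.001, 6.80 and 8.82 in the knockdown replicates, against 6.63, 6.66 and 8.40 in the control replicates. Here too both replicate 3 arrays lay above the rest, by 1.84 on average. The difference between groups was 0.31 (SE 0.66, adjusted p = 0.946), and it was -0.33 without knockdown replicate 3.

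Nnat, a small membrane proteolipid, showed the opposite order. It had 7.47, 6.64 and 5.31 in the knockdown replicates and 6.80, 6.34 and 5.28 in the control replicates, so both replicate 3 arrays lay below the other 4. The difference was 0.33 (SE 0.59, adjusted p = 0.934), and it turned to -0.17 without knockdown replicate 1 and to -0.10 without control replicate 3. Blcap, whose gene holds Nnat in an intron, had 9.74, 9.74 and 9.32 in the knockdown replicates and 9.58, 9.61 and 9.13 in the control replicates. It too was lowest in replicate 3 of each group, and its difference was 0.16 (SE 0.22), or between 0.0025 and 0.30 without single arrays.

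Commd1, a protein of copper handling whose intron holds Zrsr1, was the other member whose groups did not overlap. It had 12.59, 12.62 and 12.34 in knockdown replicates 1, 2 and 3, against 12.77, 12.79 and 12.76 in control replicates 1, 2 and 3. All 3 knockdown arrays lay below all 3 control arrays, and knockdown replicate 3 was the lowest. The difference of -0.26 (SE 0.17, adjusted p = 0.716) did not pass, and it was -0.17 without knockdown replicate 3. The gene's other probe gave -0.27, with groups that overlapped. Gnas, the stimulatory G-protein alpha subunit with several imprinted transcripts, had 8.16, 7.87 and 8.34 in the knockdown replicates, against 7.56, 6.98 and 8.33 in the control replicates. By this probe, its brightest, the groups overlapped through replicate 3 of the control. The difference was 0.50 (SE 0.35, adjusted p = 0.733), and it was 0.17 without control replicate 2 and 0.85 without control replicate 3. The other tested probe of Gnas had 6.72, 6.77 and 6.85 in the knockdown replicates, against 5.82, 5.91 and 6.17 in the control replicates. All 3 knockdown arrays lay above all 3 control arrays. Its difference was 0.81 (SE 0.18, limma adjusted p = 0.172, and 0.0514 with the replicate block), which had the lowest unadjusted p of the member probes, 0.00222. Another 2 probes of Gnas were above background on no array.

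The 5 tested members not yet described had differences between -0.46 and 0.14. They were Peg10, derived from a retrotransposon (-0.46), Ppp1r9a, the actin-binding neurabin (-0.45), Inpp5f, a phosphoinositide phosphatase (-0.30), Slc38a4, an amino acid transporter (-0.30), and Impact, a regulator of translation (0.14). Peg10 was above background on 1 of 3 knockdown arrays and on all 3 control arrays, and both of its replicate 3 arrays (7.24 in the knockdown and 7.12 in the control) lay above the other 4, which ran between 4.60 and 5.72. Slc38a4 was above background on 2 of 3 knockdown arrays and on all 3 control arrays. Another tested probe of Inpp5f gave -0.19. A further probe of Inpp5f, not tested, gave 0.37 and was above background on 2 knockdown arrays and no control array. None of the 5 members passed, with limma adjusted p between 0.654 and 0.924.

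Replicate 3 was also set against the other replicates. In 8 of the 26 members both replicate 3 arrays lay above the other 4 (Peg10, Mest, Dlk1, Grb10, Gnas, Tssc4, Slc38a4 and Inpp5f), against 21.7% of all genes. In 5 both lay below (Peg3, Mkrn3, Nnat, Ube3a and Blcap), against 25.2% of all genes. These counts use each gene's brightest tested probe. By another tested probe, both replicate 3 arrays of Ube3a (6.66 in the knockdown and 6.87 in the control) lay above the other 4. Those of Inpp5f (4.88 and 5.12) lay below, and those of Gnas did neither. By theirs, Commd1 lay above and Igf2r and Snrpn below, while Mest and Tssc4 kept their direction. The mean of the replicate 3 arrays differed from that of the other 4 by more than the knockdown differed from control in 18 members (69.2%) and in 65.7% of all genes. The median size of the replicate 3 difference was 0.68 for the members and 0.36 for all genes.

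**Figure D5:**
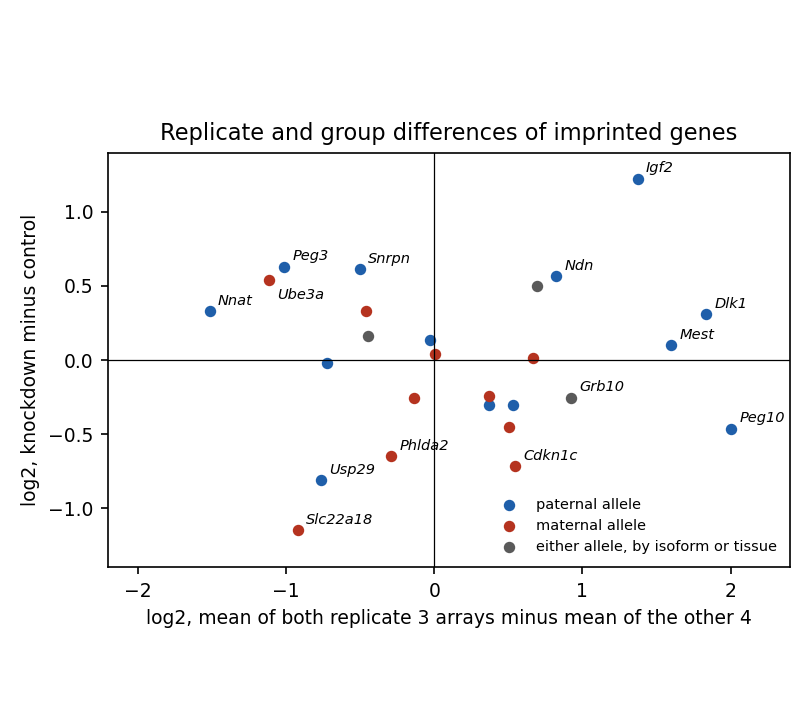
Each point is 1 of the 26 tested imprinted genes, coloured by expressed copy. The x axis is the mean log2 level of both replicate 3 arrays minus the mean of the other 4, and the y axis is the log2 difference, knockdown minus control. Points spread between -1.52 (Nnat) and 2.00 (Peg10) along x and between -1.15 (Slc22a18) and 1.22 (Igf2) along y.

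Of the 10 members with a probe that were not tested, 8 were above background on none of the 6 arrays, namely Peg12, Magel2, Plagl1, Zim1, Sgce, Asb4, Nap1l5 and Rasgrf1. Dcn, the matrix proteoglycan decorin of fibroblasts, was above background on 1 knockdown array and no control array, and Kcnq1 on 2 arrays in all. Plagl1, a zinc-finger factor that binds other imprinted genes, was read by 3 probes and Rasgrf1, an exchange factor for Ras, by 4. A probe below background says that these arrays gave no level, not that the RNA was absent. Counted per array, 24, 24 and 26 of the 36 genes were above background in knockdown replicates 1, 2 and 3 and 25, 27 and 26 in control replicates 1, 2 and 3.

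Genes that set or keep imprints were also read. Of 34 listed, 29 had a probe and 22 were tested, with a median difference of 0.08, 13 positive and 9 negative, and none called in limma (2 at an unadjusted p under 0.05, against 11.2% of all genes). The largest differences were Dppa3, a maternal factor that protects imprints in the zygote (-1.51, SE 0.29, adjusted p = 0.132), Dnmt3l, the partner of the de novo DNA methyltransferases (-0.59, SE 0.18, adjusted p = 0.308), Suz12 of Polycomb (-0.37), Cbx5, a heterochromatin protein (0.29), and the zinc-finger gene Zfp445 (0.28). Zfp445 was near the floor, above background on all 3 knockdown arrays and on 1 control array. With the replicate number as a block Dppa3 alone of the 22 was called (limma adjusted p = 0.0202), against 1.95% of all genes. Dnmt1, the maintenance methyltransferase, differed by 0.16 (SE 0.30), and Uhrf1, which recruits it, by 0.08 (SE 0.18). Trim28, the corepressor that ZFP57 recruits, differed by 0.08 (SE 0.16). Zfp57 itself and Yy1 were on the list but not among the genes tested.

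A further list of 53 genes with reported imprinting outside the members had 39 with a probe and 19 tested, with a median of -0.14, 8 positive and 11 negative, and none called in limma with or without the block (5 at an unadjusted p under 0.05 without the block, against 11.2% of all genes, and 6 with it, against 22.8%). The 5 of largest difference were Pon2, a lactonase (1.07, SE 0.55), Dhcr7 of cholesterol synthesis (-0.92, SE 0.24), Atp10a, a lipid flippase (-0.86, SE 0.26), Ddc, the decarboxylase of dopamine synthesis and neighbour of Grb10 (-0.78, SE 0.17), and Art5, a mono-ADP-ribosyltransferase (-0.72, SE 0.25). Their adjusted p lay between 0.172 (Ddc) and 0.577 (Pon2). In Ddc the knockdown arrays had 10.08, 10.02 and 10.28, all below 10.92, 10.96 and 10.85 in the control arrays.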

How the data were processed

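RNA of the 6 E14 cultures was hybridised as biotinylated cRNA to Illumina mouse arrays, per the labels' protocols. Per the file headers, the authors deposited for each array a probe signal, which the values show to be a linear intensity without background subtraction, and a detection p-value. The submitters' processing notes name GenomeStudio 2011.1, with no role given. A second deposited table holds the authors' processed intensity, scaled to column means between 538.3 and 538.6 with medians of 14.6, 15.7 and 19.2 in the knockdown and 16.2, 16.4 and 16.6 in controls. Set against each array's own signal it is linear and not centred. It was used as an alternative, floored here at 16 before log2.

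In R 4.3.3, limma 3.58.1 did the normexp correction (neqc, offset 16), quantile normalization and log2. The filter kept 13064 of 25697 probes, those whose detection p-value was below 0.05 for 3 arrays or more. They were tested with lmFit and eBayes on the group means, adjusted by Benjamini-Hochberg across the kept probes, with 0.05 as threshold. Gene names follow Entrez identifiers in the GRCm38.p6 table, found for 23962 of the 23978 probes that carry 1 symbol (1719 carry none). Where several tested probes read a gene, the brightest on average is given. Between 12473 and 13450 probes per array were above background, and the number of arrays limits the precision. Without the replicate block, p-values measure the spread between 3 transfections, in which replicate 3 stands apart. With it, they measure the spread of the differences between same-numbered arrays.

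The members, gene lists and tests were chosen with earlier results of these data known. Described in full are members called or with groups apart, the 10 largest differences and neighbour pairs of opposite imprint. Of each further list, the called genes and the 5 largest differences are named. Dnmt1, Uhrf1 and Trim28 were added for their role after their values were seen. The titles of the samples give the replicate numbers. Deviations from group means of same-numbered arrays correlated at 0.44, 0.52 and 0.71 (replicates 1, 2 and 3). Knockdown replicate 1 with control replicate 2 gave 0.37, and knockdown replicate 2 with control replicate 1 gave 0.46. Replicate 3 against a replicate 1 or 2 of the other group gave -0.52 to -0.62. These values set replicate 3 apart but do not pair replicates 1 and 2 by number. The number was used as a block in a second fit. Alternatives covered the block, background, normalization, filter, weights, probes and arrays left out. Promoter windows are RefSeq's, and no coordinates are given for the probes. No genome sequence was used.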

Additional observations from a re-analysis of the deposited data

How the results depend on the processing

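Probes called numbered 9 in the main processing and 223 with the replicate block, 4 with no background correction, 28 with offset 50, 17 with median scaling, 25 with cyclic loess, 1 with the authors' processed values, 6 with the stricter filter, 0 with no filter (2120 at an unadjusted p under 0.05) and 1208 with array weights. Added after the data were seen were both replicate 3 arrays left out (564) and the replicate block with no background correction (1102), offset 50 (926), median scaling (800), cyclic loess (479), no filter (55), the stricter filter (469) and the authors' processed values (0, and 2576 at an unadjusted p under 0.05). Leaving out single arrays gave 0 to 98 probes, and leaving out pairs under the block 52 without replicate 1, 10 without replicate 2 and 669 without replicate 3.

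Members called numbered 0 in the main processing and with the replicate block, which changed no member's call, 3 with array weights, 4 with the block without replicate 3, 3 without both replicate 3 arrays, and with the block 4 (no background correction), 3 (offset 50), 3 (median scaling), 1 (cyclic loess) and 1 (stricter filter). The Baz2a difference passed at -1.81 with array weights and, with the block, at -1.03 (offset 50), -1.48 (median scaling) and -1.50 (cyclic loess). The cause was not tested.

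Of 26 members, 17 kept their direction in each alternative and 9 turned in at least 1. Igf2r was -0.070 as the mean of probes and -0.018 without both replicate 3 arrays, also under the block, and -0.0056 to 0.12 without single arrays. Mkrn3 was 2.8e-05 with median scaling and 0.030 with the authors' values, each also under the block, and Ascl2 0.025 with array weights. Tssc4 was -0.030 with cyclic loess, also under the block, and -0.036 with array weights. Under the block, Mest was -0.0055 without replicate 1, and without replicate 2 Mkrn3 was 0.0089, Tssc4 -0.081 and Impact -0.0037. Without single arrays Peg10 ran between -1.28 and 0.058, Mest between -0.46 and 0.61, Dlk1 between -0.33 and 0.90, Mkrn3 between -0.28 and 0.21, Nnat between -0.17 and 0.91 and Tssc4 between -0.22 and 0.23.

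Signal over background limits the genes near the floor, Slc22a18, Usp29, Peg3, Ascl2, Peg10, Slc38a4 and Zfp445, and the strict filter left Baz2a out.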
